A study of Apis mellifera with 12 samples.

Results

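The circRNAs described here are 726 of the 20244 listed in a table of circular RNAs from honey bee (Apis mellifera) queen ovaries, or 3.59%. They were selected on their read counts and their span: each had reads in at least 2 of 3 libraries in each of 4 groups, and the distance from its start to its end was 2001 to 10000 nt. Of 2312 circRNAs that met the listing condition at any span, these members made up 31.4%. A further 7 met both conditions but lay in the regions LG2:4622669-4807227 and LG3:1090193-1190378 on the plus strand, which were left out by the same choice. A circRNA present in a single reproductive state cannot be a member, so the selection itself left out rings that go from absent to present.

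A circRNA forms when the spliceosome joins a downstream splice donor back to an upstream splice acceptor, which closes the RNA into a ring. The ring has no free end, so exonucleases such as RNase R spare it, and stable circRNAs can build up in tissues with slow turnover of cells. Span is a genomic distance: a ring that spans a long stretch can hold many exons with its introns removed, so the length of the RNA itself is not known from it. Several rings can come from one gene by pairing one acceptor with several donors or the reverse.

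The 4 groups were ovaries of virgin queens, of normally egg-laying queens, of queens caged for 7 days in their original colony so that laying was inhibited, and of released queens, which had the same 7 days in a cage and were taken on day 8 after laying had resumed. Each group had 3 libraries, made from 5 µg of RNA after removal of ribosomal RNA and digestion with RNase R. The libraries held 66487 to 206697 circRNA reads and listed 617 to 713 of the members, which took 22.5% to 26.5% of those reads. Whether replicates came from separate queens is not stated, so p-values measure the spread between these samples. Age, mating and the cell makeup of the ovary may differ between virgin and other queens. Fewer cells of a type and less RNA per cell cannot be told apart in whole ovaries. The table names no gene, so neither host genes nor ovary markers were examined.

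Members spanned 2004 to 9987 nt with a median of 4106 nt, and 379 lay on the minus and 347 on the plus strand. The bin from 2001 to 3000 nt was the fullest, with 207 members (28.5%) and 32.3% of member reads. The bin from 8001 to 10000 nt had 74 members (10.2%) and 17.9% of member reads. The member with the most reads, ame_circ_0017693, lies in that bin and by itself held 9.74% of member reads. Spearman's rho of span with mean level was -0.09 over the 726 members, a description only, since members share libraries and splice sites. Of all members 715 lay on the 16 linkage groups, and 122 (16.8%) lay on LG1, against 14.9% of the other widely listed circRNAs.

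Most members were one of several rings with a common splice site. The acceptor of 598 members (82.4%) and the donor of 539 (74.2%) also occurred in another listed circRNA, and only 39 members shared neither end. Counting only widely listed partners, 43% of members shared an acceptor and 38% a donor. Those shares were 23.2% and 21.7% for widely listed circRNAs of up to 500 nt, 28% and 22.9% between that and the lower limit, and 60.2% and 63.2% for those over 10000 nt. Sharing of ends thus had its lowest values in the shortest class and its highest in the longest. These shares were not adjusted for level or for the number of circRNAs listed at a locus.

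Reads were concentrated in few members. The mean level was 13.6 to 22764 CPM (the read count scaled to a common total of circRNA reads per library), with a median of 94.0 CPM, and 49 members were above 1000 CPM. The first 5 members took 23.2% of the 423897 member reads and the first 50 took 56.2%.

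The member with the most reads was ame_circ_0017693 (LG7:640672-648915, minus strand), a ring spanning 8243 nt. It was at 27471, 18951 and 26705 CPM in virgin, 21851, 17565 and 14567 CPM in laying, 35898, 25836 and 21636 CPM in caged and 11495, 28552 and 22644 CPM in released ovaries. The groups overlapped, and its largest spread was between released libraries. The second, ame_circ_0006346 (LG15:5368191-5375154, minus strand), was at 5064, 1639 and 3383 CPM in virgin, 8321, 11275 and 4119 CPM in laying, 20291, 12777 and 16489 CPM in caged and 8901, 11625 and 12556 CPM in released ovaries. Its caged and released libraries were all above the virgin ones, while laying replicate 3 was below virgin replicate 1. It was called higher than in virgin in laying ovaries (log2 fold change 1.35 with SE 0.38, adjusted p = 0.0148), in caged ovaries (log2 fold change 2.44 with SE 0.40, adjusted p = 0.00014) and in released ovaries (log2 fold change 1.79 with SE 0.39, adjusted p = 0.00274), all by edgeR's quasi-likelihood test. The step from laying to caged was not called (log2 fold change 1.09 with SE 0.38, adjusted p = 0.312).

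The third, ame_circ_0002247 (LG11:12386243-12388251, minus strand), had close replicates. It was at 4081, 4497 and 4315 CPM in virgin, 13021, 12155 and 12917 CPM in laying, 9642, 11069 and 8891 CPM in caged and 11645, 10520.2 and 8746 CPM in released ovaries. Every library of the other groups was above every virgin library, and it was called higher in laying than in virgin ovaries (log2 fold change 1.73 with SE 0.21, adjusted p = 5.25e-06). The fourth, ame_circ_0006440 (LG15:6369624-6372369, minus strand), overlapped between all groups, with means of 6913 ± 2828 CPM in virgin and 8491 ± 857 CPM in laying libraries (SD, n = 3). The fifth, ame_circ_0019203 (LG8:8549470-8554151, minus strand), had means of 4883 ± 442, 6036 ± 567, 7335 ± 2423 and 5699 ± 442 CPM in virgin, laying, caged and released ovaries. It was called only in caged vs virgin (log2 fold change 0.80 with SE 0.23, adjusted p = 0.0172), where caged replicate 1 lay among the virgin libraries.

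As a share of all widely listed circRNA reads, members took 28.0%, 25.1% and 26.8% in virgin, 26.2%, 25.7% and 24.5% in laying, 28.8%, 27.9% and 26.9% in caged, and 26.1%, 27.2% and 26.3% in released libraries. The largest difference was caged over laying, by 2.39 percentage points, and there every caged library was above every laying library. Its exact two-sided permutation p was 0.1, the smallest that 3 against 3 libraries allow, and 0.4 after Benjamini-Hochberg adjustment over 6 pairs. No pair passed. The left-out regions held 2.88% of these reads in virgin and 11.0%, 9.84% and 10.2% in laying, caged and released ovaries, and with them out of the denominator the laying share was 1.18 points above the virgin one instead of 1.19 points below it. The caged share was 1.2 points above the virgin one, and 3.45 points with these regions out, which was then the largest difference, ahead of 2.28 points for caged over laying. Leaving out 1 library, caged over virgin ranged from 0.435 points (without virgin replicate 2) to 1.88 points (without virgin replicate 1). Around the members, circRNAs of up to 500 nt had shares of 23.8% ± 1.79 in virgin, 20.5% ± 0.455 in laying, 17.3% ± 0.362 in caged, then 19.8% ± 0.991 in released libraries (SD, n = 3), and those over 10000 nt took 12.5%, 12.8%, 15.6% and 13.1%.

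**Figure D1:**
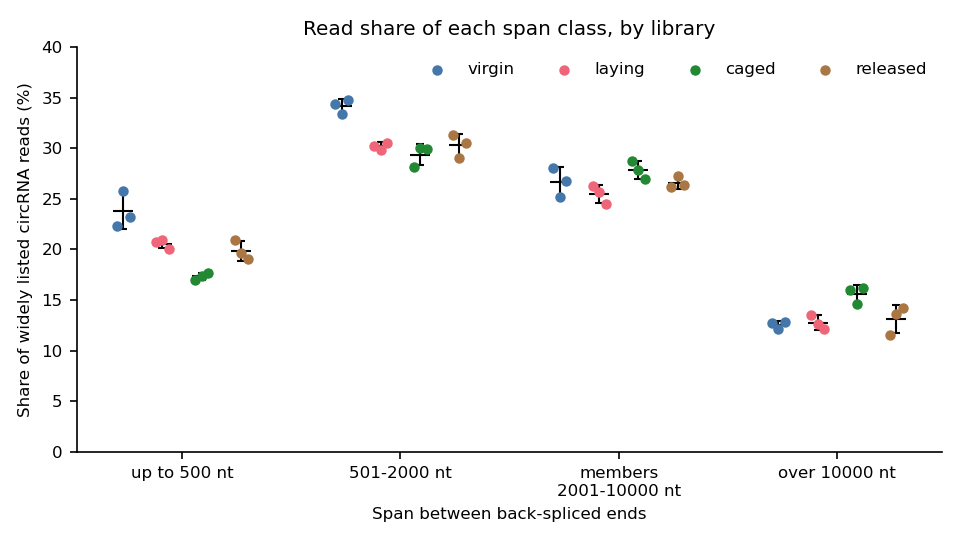
Share of widely listed circRNA reads (%) held by each span class, with 1 point per library and bars for the mean and SD of 3 libraries. Members held 24.5% to 28.8% in every library, while the class of up to 500 nt had its highest mean (23.8%) in virgin and its lowest (17.3%) in caged ovaries; the left-out regions, not drawn, make up the rest.

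The comparison of laying with virgin queens addresses the activation of the ovary. Of 700 members that passed the filter on low counts, 87 (12.4%) rose and 61 (8.71%) fell in laying ovaries, 148 in all or 21.1% (edgeR, adjusted p under 0.05). Over all 3215 tested circRNAs 22.7% were called, 12.5% higher and 10.3% lower, and over the other widely listed circRNAs 24.4% were called, so the members' share was near the background. The other 26 members, the highest at a mean of 34.2 CPM, were not tested. The median log2 fold change was 1.98 for the higher members, 40 of which passed 4-fold, and -2.01 for the lower ones, 32 of which did. With library totals in place of TMM scaling, 77 members were higher and 90 lower, since that scaling moved the median log2 fold change of all tested circRNAs by -0.20, so the balance of directions depends on the scaling.

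**Figure D2:**
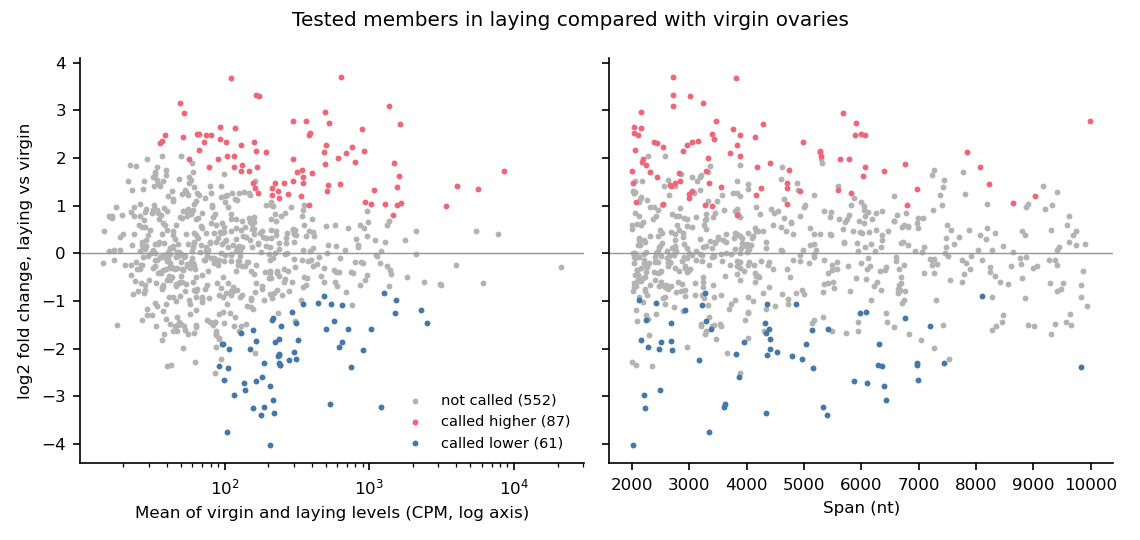
Log2 fold change, laying vs virgin, of the 700 tested members against their level (CPM, log axis, left) and their span (nt, right), with 1 point per member. The 87 called higher and 61 called lower are missing from the faintest levels, and the share called is lowest above 6000 nt (17.1% and 9.86% in the last bins).

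The share of members called had its lowest values at the long end of the range. Of tested members, 21.9% were called from 2001 to 3000 nt, 24.3% from 3001 to 4000 nt, 25.4% from 4001 to 6000 nt, 17.1% from 6001 to 8000 nt and 9.86% (7 of 71) from 8001 to 10000 nt. Median levels over all members of these bins were 116, 95.1, 85.3, 71.6 and 92.2 CPM, and a link of level with the share called was not tested. In caged vs virgin the last 2 bins had 16.3% and 16.9% called, and in released vs virgin 17.1% and 16.9%. Spearman's rho between span and the log2 fold change was -0.06 over 700 members. No test was made of the difference between bins.

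The largest called increase was that of ame_circ_0003769 (LG12:6740720-6743431, plus strand), a ring of 2711 nt span. It was at 114, 90.2 and 83.95 CPM in virgin and 1312, 1311 and 920.3 CPM in laying libraries, a 13.1-fold change (log2 fold change 3.71 with SE 0.31, adjusted p = 8.24e-08). The ring ame_circ_0003768 shares its donor and starts 3 nt away. It was at 338, 316 and 285 CPM in virgin and 2129, 2725 and 2435 CPM in laying libraries (log2 fold change 3.10 with SE 0.26, adjusted p = 8.24e-08). Both had every laying library above every virgin library, and the split of reads between 2 such close junctions rests on the authors' calling. Caged libraries of ame_circ_0003769 were at 813, 1162 and 879 CPM and released ones at 714, 689.5 and 667 CPM, all above virgin.

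The next by size was ame_circ_0009094 (LG1:21015280-21019089, minus strand), at 14.9, 45.1 and 0 CPM in virgin and 179.9, 149 and 281 CPM in laying libraries (log2 fold change 3.69 with SE 0.63, adjusted p = 0.000245). Virgin replicate 3 was listed at 0, and the log2 fold change was 4.46 without virgin replicate 2 and 3.06 without virgin replicate 3. The ring ame_circ_0015038 (LG5:1756023-1758746, minus strand) was low and even in virgin libraries, at 24.8, 30.1 and 41.98 CPM, and at 277, 270.2 and 348 CPM in laying libraries (log2 fold change 3.33 with SE 0.40, adjusted p = 6.34e-06). The ring ame_circ_0008899 (LG1:2002289-2005308, minus strand) was at 19.9, 75.2 and 25.2 CPM in virgin and 239.9, 345 and 325 CPM in laying libraries (log2 fold change 3.30 with SE 0.48, adjusted p = 5.41e-05). All of these stayed above every virgin library in caged and released ovaries.

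The remaining members of this group were ame_circ_0010455, ame_circ_0004977, ame_circ_0015702, ame_circ_0008724 and ame_circ_0005634, with fold changes between 6.59 and 7.84. The most abundant was ame_circ_0005634 (LG14:7892514-7896800, plus strand), at 377, 692 and 386 CPM in virgin and 3088, 2645 and 2548 CPM in laying libraries (log2 fold change 2.72 with SE 0.27, adjusted p = 6.57e-07). The ring with the longest span of all members, ame_circ_0004977 (LG14:1714098-1724085, plus strand), was at 79.4, 120.3 and 58.8 CPM in virgin and 622, 592 and 303 CPM in laying libraries (log2 fold change 2.78 with SE 0.37, adjusted p = 1.95e-05). It spans 9987 nt, and laying replicate 3 was the lowest of its group. The ring ame_circ_0010455 (LG1:724301-726449, plus strand) had 1 high virgin library, at 84.4, 256 and 67.2 CPM in virgin and 705, 788 and 1066 CPM in laying libraries (log2 fold change 2.97 with SE 0.40, adjusted p = 2.02e-05). Without that library, replicate 2, its log2 fold change was 3.59.

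The largest called decrease was that of ame_circ_0018906 (LG8:6608007-6610025, plus strand), which was at 367, 391 and 411 CPM in virgin and 29.98, 11.5 and 22.4 CPM in laying libraries, 16.3-fold lower (log2 fold change -4.02 with SE 0.64, adjusted p = 0.000135). Its virgin libraries were within a narrow range, and caged libraries were at 14.5, 35.2 and 22.7 CPM and released ones at 46.99, 24.4 and 0 CPM. It was thus low in every library that was not virgin. The ring ame_circ_0018341 (LG8:2460359-2464704, minus strand) had the same form, at 427, 376 and 395 CPM in virgin and 44.98, 11.5 and 56.1 CPM in laying libraries (log2 fold change -3.35 with SE 0.55, adjusted p = 0.000177).

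The ring ame_circ_0005023 (LG14:2243620-2246966, plus strand) was at 189, 180.5 and 218 CPM in virgin and 14.99, 17.2 and 0 CPM in laying libraries (log2 fold change -3.76 with SE 0.76, adjusted p = 0.00121). The ring ame_circ_0003445 (LG12:11699832-11705226, plus strand) was at 462, 316 and 201 CPM in virgin and 22.5, 28.7 and 33.7 CPM in laying libraries (log2 fold change -3.39 with SE 0.61, adjusted p = 0.000402). Virgin levels of the first were even, and those of the second varied more than laying levels.

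Among members that fell, ame_circ_0003467 (LG12:1332757-1336368, minus strand) was the most abundant of the largest changes. It was at 2869.7, 1384 and 2342 CPM in virgin and 359.8, 172 and 101 CPM in laying libraries (log2 fold change -3.23 with SE 0.40, adjusted p = 6.96e-06), and ame_circ_0003465, which has the same end and starts 11 nt away, was at 1122, 707 and 1083 CPM in virgin and 157, 97.7 and 22.4 CPM in laying libraries. Neither overlapped between the groups. The ring ame_circ_0001024 (LG10:2143614-2153438, plus strand), spanning 9824 nt, was at 1380.2, 1053 and 1368 CPM in virgin and 269.9, 201 and 179.6 CPM in laying libraries (log2 fold change -2.39 with SE 0.30, adjusted p = 1.14e-05). It had one of the 3 smallest p-values among decreases, with ame_circ_0003467 and ame_circ_0008980.

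The rings ame_circ_0012505 and ame_circ_0012510 overlap each other on LG3 (13007808-13010034 and 13009892-13012097, minus strand). The first was at 273, 120.3 and 470.1 CPM in virgin and 52.5, 22.999 and 0 CPM in laying libraries (log2 fold change -3.25 with SE 0.80, adjusted p = 0.00537), with a log2 fold change of -4.02 without laying replicate 1. The second was at 194, 135 and 302 CPM in virgin and 14.99, 45.998 and 0 CPM in laying libraries (log2 fold change -2.98 with SE 0.83, adjusted p = 0.0132), and its call was lost without virgin replicate 3 or laying replicate 1 (log2 fold change -2.74 and -2.64), while without laying replicate 2 it was -4.33. The remaining ones, ame_circ_0008200 and ame_circ_0009043, were 9.35-fold and 8.46-fold lower. Without laying replicate 2, listed at 0, the log2 fold change of ame_circ_0008200 was -2.51 in place of -3.22.

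**Figure D3:**
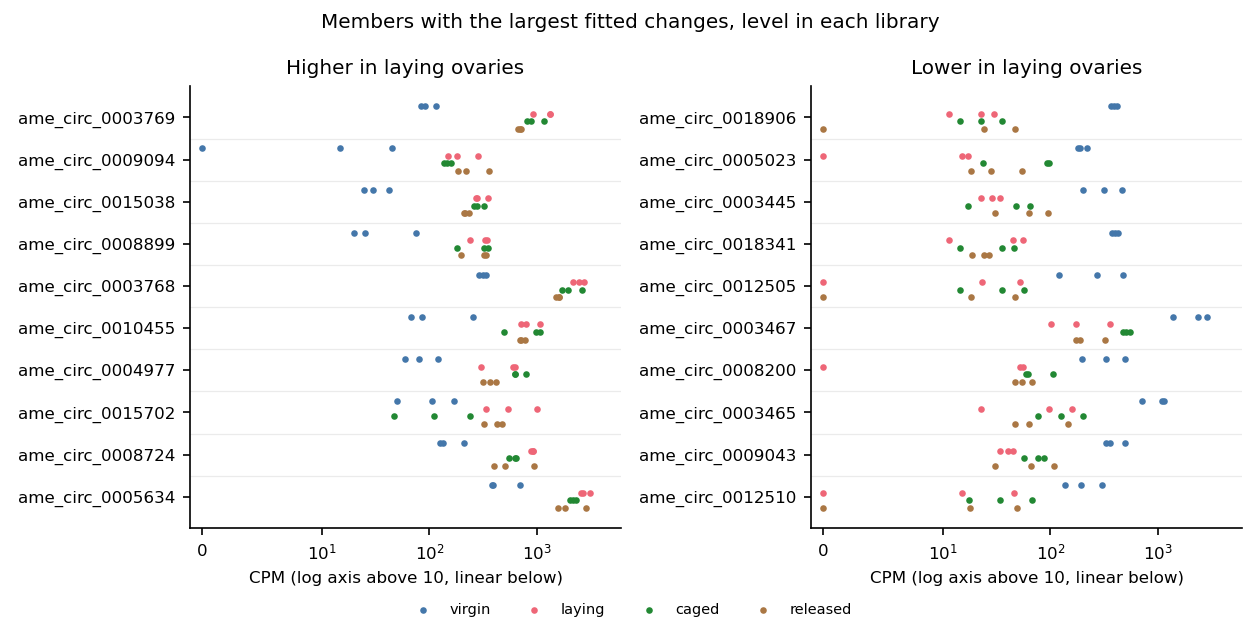
Level of the 10 members with the largest called increase (left) and decrease (right) in laying vs virgin ovaries, in CPM (log axis above 10 CPM, linear below), with 1 point per library. Virgin and laying libraries do not overlap for any of the 20, which the choice of these members required; the caged libraries of ame_circ_0015702, at 111, 46.95 and 238 CPM, overlap its virgin ones.

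The balance of directions was also counted by span class. Among called widely listed circRNAs in laying vs virgin, 31.2% of those of up to 500 nt were higher, 52% of those between that and the lower limit, 58.8% of the members and 67.6% of those over 10000 nt, against 54.9% of all called circRNAs. Median log2 fold changes over tested circRNAs of these classes were -0.22, -0.0018, 0.034 and 0.20, with 0 over all tested. With library totals the percentages were 23.8%, 38.7%, 46.1% and 53.2%, in the same order but lower. In released vs virgin the order was also kept, at 31.6%, 57.6%, 60.1% and 72.7%, while in caged vs virgin the class just below the members, at 62.7%, was above their 61.4%. Of all called circRNAs, 62.7% were higher in caged vs virgin and 59.1% in released vs virgin, so the members' shares were near the background there. The 3 comparisons share the virgin libraries, and the difference between classes was not tested.

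**Figure D4:**
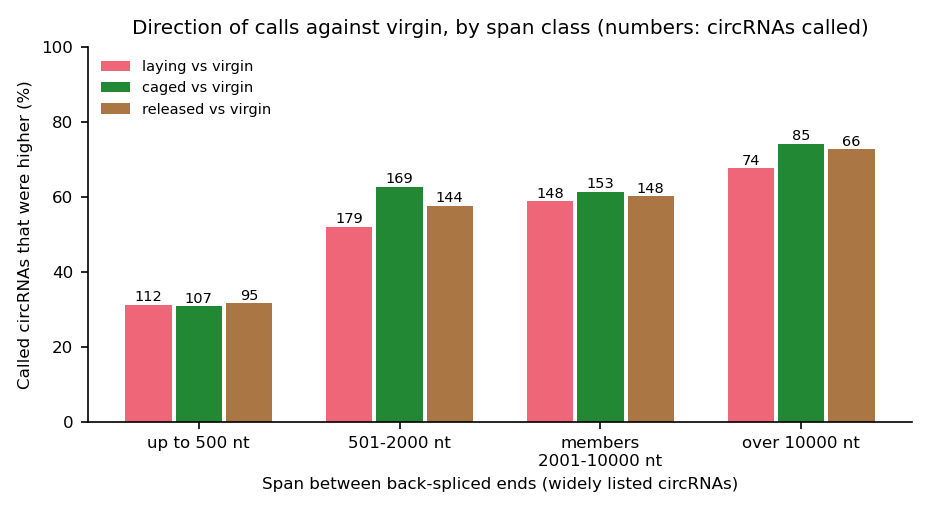
Percentage of called widely listed circRNAs that were higher than in virgin ovaries, by span class, with the number called above each bar and 1 bar per comparison. Members lie at 58.8%, 61.4% and 60.1%, against 54.9%, 62.7% and 59.1% of all called circRNAs (not drawn). They lie between the class of up to 500 nt (30.8% to 31.6%) and the class over 10000 nt (67.6% to 74.1%). With library totals as the scaling members lie at 46.1%, 48.1% and 51.3%.

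Caged and released ovaries were each compared with virgin ovaries as well. In caged ovaries 94 members were higher and 59 lower, 21.9% of those tested, against 21.4% of all tested circRNAs (13.4% higher and 7.96% lower) and 24.1% of the other widely listed ones. In released ovaries 89 were higher and 59 lower, 21.1%, against 19.3% of all (11.4% higher and 7.9% lower) and 20.4% of the other widely listed ones. With library totals the splits were 76 higher and 82 lower for caged, and 79 higher and 75 lower for released ovaries. That scaling also moved the median log2 fold change of all tested circRNAs, from 0.111 to -0.115 for caged and from 0.095 to -0.072 for released ovaries. Counts of lower members in caged vs virgin were 34, 39, 36 and 37 without virgin replicate 1, virgin replicate 3, caged replicate 1 and caged replicate 2. In released vs virgin 57 were higher without virgin replicate 3 and 37 lower without released replicate 1. All these comparisons use the same virgin libraries. The shares of all tested circRNAs called with a library left out are not given here.

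In caged vs virgin the largest increases with non-overlapping libraries were those of ame_circ_0003769, ame_circ_0015038 and ame_circ_0009094, and the largest decreases those of ame_circ_0018906, ame_circ_0018341 and ame_circ_0004999. The last (LG14:1889089-1893615, minus strand) was at 526, 421 and 520.5 CPM in virgin and 43.5, 35.2 and 68.1 CPM in caged libraries (log2 fold change -3.12 with SE 0.53, adjusted p = 0.000233). In released vs virgin the largest increases were those of ame_circ_0009094, ame_circ_0008899 and ame_circ_0003769. The largest decrease was that of ame_circ_0017309 (LG7:1597826-1604219, plus strand), from 357, 376 and 369 CPM in virgin to 18.8, 18.3 and 0 CPM in released libraries (log2 fold change -4.60 with SE 0.80, adjusted p = 0.000339), followed by ame_circ_0018341 and ame_circ_0018906. Virgin libraries of ame_circ_0017309 were almost equal, and released replicate 3 was listed at 0.

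The comparison of caged with laying queens addresses the stop of egg laying together with 7 days in a cage, and these cannot be told apart here. Of 700 tested members 1 was called (0.143%), against 0.0933% of all tested circRNAs. Unadjusted edgeR p was under 0.05 for 49 members (7%), against 8.71% of all tested circRNAs. That member, ame_circ_0006114 (LG15:3022811-3027767, minus strand), was at 165, 63.2 and 78.6 CPM in laying and 218, 822 and 556 CPM in caged libraries, with virgin at 616, 361 and 579 CPM and released at 244, 183 and 243 CPM. Caged replicate 1 was far below the other caged libraries. The change was 5.29-fold (log2 fold change 2.40 with SE 0.46, adjusted p = 0.0466), and the call was lost with the stricter filter, with the replicate block, with library sizes over all circRNAs, with only these groups in the fit, and without laying replicate 1, 2 or 3 or caged replicate 2 or 3. DESeq2 called 10 members, 7 higher and 3 lower, of 339 to which it gave an adjusted p, and 2.33% of all circRNAs with one.

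Among members not called by edgeR, ame_circ_0017490 was at 412, 172 and 438 CPM in laying and 1379, 651 and 874 CPM in caged libraries (log2 fold change 1.59 with SE 0.38, adjusted p = 0.115). For ame_circ_0008980 the levels were 239.9, 161 and 303 CPM in laying and 556, 452 and 488 CPM in caged libraries (log2 fold change 1.16 with SE 0.28, adjusted p = 0.115). Both had no overlap between the groups and were called lower in laying than in virgin ovaries. In the other direction, ame_circ_0015702 (LG5:9141630-9145087, plus strand) was at 49.6, 105 and 168 CPM in virgin, 1004, 540.5 and 337 CPM in laying, 111, 46.95 and 238 CPM in caged and 469.9, 427 and 324 CPM in released libraries (log2 fold change -2.21 with SE 0.48, adjusted p = 0.108 for caged vs laying). It was called higher than in virgin in laying and in released ovaries and not in caged ones, and edgeR called caged vs laying without laying replicate 3, the lowest of that group, or without the filter. Without caged replicate 3 the log2 fold change for caged vs laying was -2.90. The rings ame_circ_0008195 and ame_circ_0013138 went the same way, with means of 222 ± 114 and 211 ± 30.2 CPM in laying and 46.9 ± 31.05 and 66.7 ± 29.4 CPM in caged ovaries (SD, n = 3). DESeq2 called each of these 5.

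The comparison of released with caged queens addresses the return of laying together with release from the cage and a later sampling day, which cannot be told apart. No member was called by edgeR or DESeq2 in the 700 tested, where 0% of all circRNAs were called. Unadjusted edgeR p was under 0.05 for 38 members (5.43%), against 6.38% of all tested circRNAs. The lowest adjusted p of a member was 0.557 by edgeR. The member ame_circ_0008996 (LG1:20479379-20485952, plus strand) was at 1437, 916 and 931 CPM in caged and 1814, 2044 and 2225 CPM in released libraries. It was one of the 3 with the smallest p that were higher on release, with ame_circ_0015702 and ame_circ_0009167, the last at means of 44.8 ± 23.5 and 146 ± 30.6 CPM. Lower in released libraries, without a call, were ame_circ_0012574 (511 ± 39.2 and 260.4 ± 87.8 CPM), ame_circ_0003467 (506 ± 36.4 and 227 ± 81.1 CPM) and ame_circ_0019277 (388 ± 187 and 174 ± 41.2 CPM).

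Between released and laying ovaries no member was called by edgeR or DESeq2 either, against 0% called of all tested circRNAs. Unadjusted edgeR p was under 0.05 for 35 members (5%), against 7.22% of all tested circRNAs. The lowest adjusted p of a member was 0.282 by edgeR. The members with the smallest p that were higher in released ovaries were ame_circ_0004561, ame_circ_0007710 and ame_circ_0000699. The last (LG10:10481070-10483616, plus strand) was at 1087, 556 and 1041 CPM in virgin, 1792, 1961 and 1313 CPM in laying, 3817, 3293 and 3790.3 CPM in caged and 3149, 2148 and 4809.7 CPM in released libraries, so caged and released libraries were all above the laying ones. It was called higher than in virgin in laying, caged and released ovaries. Lower in released ovaries were ame_circ_0018106 (178 ± 12.9 CPM in laying and 61.3 ± 5.65 CPM in released ovaries), ame_circ_0003769 and ame_circ_0003768.

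These zero and near-zero counts do not show that the members stayed level. A 95% interval lying inside 2-fold up and down was found for 122 members (17.4%) in caged vs laying, 129 (18.4%) in released vs caged and 126 (18%) in released vs laying. One inside 4-fold was found for 449 (64.1%), 454 (64.9%) and 442 (63.1%). For the other members the interval reached 4-fold in at least 1 direction.

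Members that share splice sites were compared within junction families, sets of tested circRNAs on one strand that are linked by an identical start or end. There were 1770 families, of which 557 held more than 1 circRNA, and 516 of the tested members lay in those. Of 16 families in which more than 1 member was called in laying vs virgin, the called members all rose in 9, all fell in 6 and went opposite ways in 1. Counted over all tested circRNAs, 102 families had more than 1 called, and these all rose in 55, all fell in 35 and went opposite ways in 12. The family on LG12 from 6735589 to 6743431 (plus strand) had 6 members among 7 circRNAs. Of those members ame_circ_0003762, ame_circ_0003764, ame_circ_0003767, ame_circ_0003768 and ame_circ_0003769 rose, and ame_circ_0003763 was not called (log2 fold change 1.99 with SE 0.98, adjusted p = 0.15). Virgin means of the 5 were 29.0 to 366 CPM and laying means 121 to 2429.9 CPM.

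In the families with the most members, not all members were called. In the family on LG15 from 6365274 to 6381531 (18 circRNAs, minus strand) 3 of 7 members rose, ame_circ_0006448, ame_circ_0006449 and ame_circ_0006456. Its main ring, ame_circ_0006440, was not called. In the family on LG1 from 20453793 to 20487730 (9 circRNAs, plus strand) 1 of 7 members fell, ame_circ_0008992, at 3823, 3339 and 2669.6 CPM in virgin and 1079, 1248 and 1559.9 CPM in laying libraries (log2 fold change -1.20 with SE 0.26, adjusted p = 0.00193). It shares its start with ame_circ_0008996, which was not called, at 1137 ± 188 and 1616 ± 321 CPM. On LG6 from 15360145 to 15372033 (7 circRNAs, plus strand) 2 of 6 members fell, ame_circ_0016066 and ame_circ_0016069. On LG2 from 10793311 to 10831810 (25 circRNAs, minus strand) none of 6 members was called. Longer rings of that LG2 family that are not members were called higher by edgeR. They were ame_circ_0010731, ame_circ_0010751 and ame_circ_0010756 (adjusted p = 0.000675, 0.0362 and 0.0121).

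Use of a member, its share of its family's reads, was tested apart from the family's level with edgeR's differential splicing test. In laying vs virgin 9 of 516 members were called (1.74%), 5 used more and 4 used less, against 2.45% of all 2002 circRNAs tested. In caged vs laying 0 of 516 were called, with 10 at an unadjusted p under 0.05 and a lowest adjusted p of 0.61, against 0.0999% of all. Use was not tested with DESeq2.

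The change in use with the smallest p was in the family on LG1 from 18150632 to 18167182 (7 circRNAs, minus strand), which is also the one whose members went opposite ways. The ring ame_circ_0008724 (LG1:18161283-18167182, minus strand) took 9.69%, 17.7% and 9.7% of family reads in virgin, 86%, 86% and 76.4% in laying, 59.1%, 75.5% and 69.2% in caged and 81.8%, 64.6% and 66.7% in released libraries. Its level was 124, 211 and 134 CPM in virgin and 922, 885 and 909 CPM in laying libraries (log2 fold change 2.75 with SE 0.32, adjusted p = 4.72e-06). The ring ame_circ_0008722 (LG1:18160207-18167182, minus strand) ends at the same position and starts 1076 nt further out. It went the other way, from 28.3%, 30.4% and 35.8% of family reads in virgin to 8.39%, 3.91% and 7.55% in laying libraries, and its level was 362, 361 and 495 and 89.95, 40.2 and 89.8 CPM (log2 fold change -2.35 with SE 0.49, adjusted p = 0.00145). The adjusted p of use was 1.59e-06 for the first and 0.00402 for the second, and the family's summed level was 1285 CPM in virgin and 1097 CPM in laying libraries on average. The main ring of this family was thus ame_circ_0008724 in laying, caged and released libraries and not in virgin ones.

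Other members also changed use. The ring ame_circ_0009246 (LG1:21988096-21990987, minus strand) took 17.9%, 25.6% and 10% of family reads in virgin and 51.1%, 55.7% and 56.5% in laying libraries (adjusted p of use 0.00468), and caged and released libraries were at 50.2% to 58.6%. The ring ame_circ_0017324 (LG7:1650049-1654071, plus strand) took 1.09%, 0.516% and 0.669% in virgin and 6.19%, 7.08% and 8.25% in laying libraries (adjusted p of use 0.00109). Its own level was not called (log2 fold change 0.43 with SE 0.42, adjusted p = 0.502), while the sum of its family was 19900.0 CPM in virgin and 2805 CPM in laying libraries on average. A change in use was thus measured without a called change in the ring's own level. One ring that is not a member, ame_circ_0017314, held 90.4% of family reads in virgin and 74.2% in laying libraries on average. Its mean level was 17990 CPM in virgin and 2086 CPM in laying libraries. Another non-member whose level was not called, ame_circ_0017318, also went from 1.37% to 11% of family reads.

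The ring ame_circ_0019200 (LG8:8546045-8554151, minus strand) took 4.67%, 4.69% and 3.03% in virgin and 0.884%, 1.08% and 1.01% in laying libraries (adjusted p of use 4.9e-05), in a family whose sum was 15839 CPM in virgin and 31929 CPM in laying libraries on average. Its level fell (log2 fold change -0.89 with SE 0.29, adjusted p = 0.0301), a call lost without the filter and without virgin replicate 1 or 2 or laying replicate 1, 2 or 3. The ring ame_circ_0009094, among the largest increases, was also used more, at 0.781%, 3.33% and 0% in virgin and 8.45%, 7.56% and 16.1% in laying libraries (adjusted p of use 0.000264). Of the other 3, ame_circ_0001031 was used more and ame_circ_0006339 and ame_circ_0015130 less, and their virgin and laying libraries did not overlap in use.

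**Figure D5:**
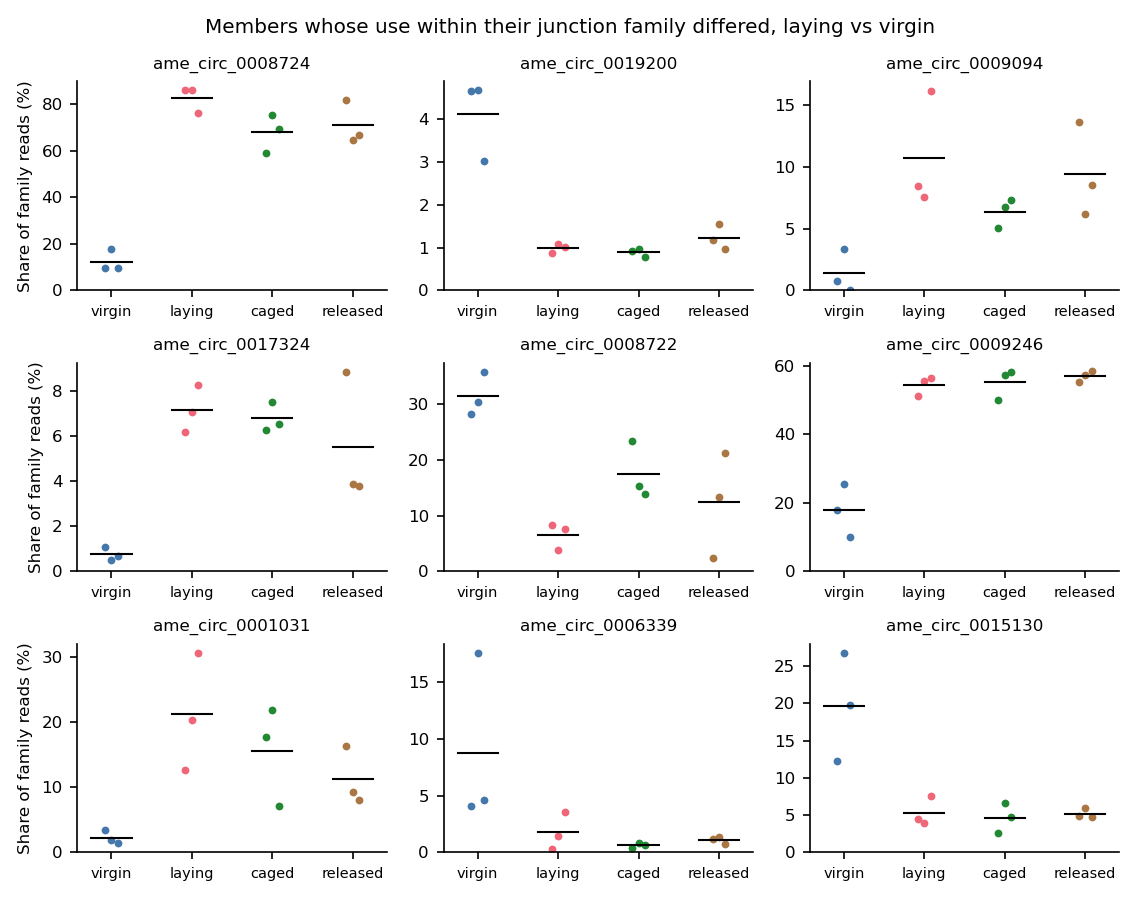
Share of junction family reads (%) taken by each of the 9 members whose use differed between laying and virgin ovaries, with 1 point per library and a line at the mean of 3; each panel has its own axis from 0. In all 9 panels no virgin library lies among the laying ones, and ame_circ_0008724 has the widest step of these 9, from a mean of 12.4% to 82.8%.

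The limits of the selection fall within a continuous range of rings. Just inside the lower limit were ame_circ_0003611 (2004 nt, 1763 CPM over 12 libraries), ame_circ_0006635 (2006 nt, 361 CPM) and ame_circ_0019013 (2007 nt, 47.5 CPM), and just outside it were ame_circ_0010608 (1995 nt, 307 CPM), ame_circ_0010007 (1990 nt, 368 CPM) and ame_circ_0005833 (1983 nt, 58.2 CPM). Near the upper limit ame_circ_0004977 (9987 nt, 409 CPM), ame_circ_0001781 (9929 nt, 34.0 CPM) and ame_circ_0016773 (9898 nt, 32.6 CPM) were inside, and ame_circ_0017180 (10010 nt, 171 CPM), ame_circ_0009071 (10014 nt, 193 CPM) and ame_circ_0008891 (10186 nt, 92.0 CPM) outside. By listing, 456 members (62.8%) were found in all 12 libraries and 8 in only 8, the fewest allowed, with a median of 19.2 CPM. A further 276 circRNAs of this span passed the condition in 3 of 4 groups, with a median of 23.01 CPM.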

How the data were processed

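CircRNAs were measured in 12 queen ovary libraries by directional paired-end sequencing (150 bp) after RNase R digestion, per the labels' protocols, and positions are in Amel_4.5. The authors deposited read counts per circRNA and library. The deposited columns headed TPM hold each count scaled to a common total of circRNA reads, do not correct for length, and are named CPM here. The submitters' processing notes name Bowtie. The name of the circRNA caller was not given in the sources used here. No count of 1 occurs, and the smallest above 0 was 2. Libraries held 66487 to 206697 circRNA reads, which limits the precision of faint members.

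Counts entered 1 quasi-likelihood fit over 4 groups with TMM scaling (edgeR 4.0.16, R 4.3.3). The filter (filterByExpr, minimum count 5, minimum total 15) kept 3215 of 20244 circRNAs, and Benjamini-Hochberg adjustment covered all 3215. A member was called at an adjusted p under 0.05, and SE is the size of the log2 fold change over the square root of F. Fold changes use TMM and printed CPM do not. Shares were compared by exact two-sided permutation (SciPy 1.17.1). Use within families was tested with edgeR's diffSpliceDGE. Alternatives included DESeq2 1.42.0, other scalings and filters, a replicate block and leaving out each replicate.

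The members and lists were chosen with earlier results of these data known. Members named are the 5 most abundant, the 10 largest called changes per direction in laying vs virgin (3 for caged and released vs virgin) whose libraries did not overlap and whose higher mean reached the median of 137 CPM, the called or 3 smallest-p members of the remaining comparisons, the 3 smallest-p calls per direction in laying vs virgin, the 5 fullest families, the smallest-p changes in use, and the members at the span limits. In use, members ame_circ_0009246, ame_circ_0001031, ame_circ_0006339 and ame_circ_0015130, and within families the members listed beside them, were named after their values were seen. No gene names or sequences of this build were used here.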

Additional observations from a re-analysis of the deposited data

How the results depend on the processing

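The counts of members called in laying vs virgin stayed within 1.5 times of those given under every alternative run except 1. Restricting members to those that share no end with another circRNA leaves 37 of 700 tested, so its counts are on another scale. Of these 37, 6 (4 higher, 2 lower) were called in laying vs virgin, 6 (4 and 2) in caged vs virgin, 8 (5 and 3) in released vs virgin and 0 in caged vs laying. Of all 700, 148, 153, 148 and 1 were called (21.1%, 21.9%, 21.1% and 0.143%). The shares of all tested circRNAs were 22.7%, 21.4%, 19.3% and 0.0933%. In caged vs laying DESeq2 called 10 members and edgeR without a filter 5. The stricter filter, the replicate block, library sizes over all circRNAs (an alternative chosen after seeing the data) and only the groups compared each gave 0, and leaving out 1 library gave 0 to 1. Without a filter all 726 members were tested. Of these, 29 were lower in caged vs virgin, and 97 were called in released vs virgin, 29 of them lower. Leaving out 1 library gave 34 to 52 lower members in caged vs virgin, and in released vs virgin 57 to 83 higher and 37 to 58 lower members. The shares of all tested circRNAs called without a filter or with 1 library left out are not given here. The share of member reads in released vs virgin differed by -0.11 points, and by 0.8 over all circRNA reads, 0.101 for members in all 12 libraries, 0.255 without the top member, 2.12 without the left-out regions and -0.87 to 0.579 when 1 library was left out. Without the left-out regions it was 1.18 in laying vs virgin and 3.45 in caged vs virgin. The cause of these moves was not tested. Correlations of deviations from group means were -0.16 to 0.108 for equal replicate numbers and -0.103 to 0.121 for others. These cannot exclude a pairing of samples by number, since deviations from a mean of 3 libraries are tied to each other. With the block 143 members were called in laying vs virgin (84 higher, 59 lower) and 0 in caged vs laying. Of 55 results for named members, 47 kept their side of the threshold under every alternative and 0 reversed. Many of these were named for large called changes without overlap of libraries, so this follows in part from their choice. Depth limits the faint members most, and the filter of the main fit left 26 of them untested.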
